A study of Mus musculus with 6 samples.

Results

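A microRNA is cut from a hairpin of RNA that can give a mature strand from each side, a 5p arm and a 3p arm. On the TaqMan card used here, 36 hairpin stems carried assays for both arms. The members are the 23 mouse stems, with 46 of the 381 assays, whose names end in -5p and -3p for the same stem. Another 12 mouse stems with both endings were set aside by number, 7 of them single stems such as miR-125a and 5 from the imprinted Dlk1-Dio3 region, and the 1 remaining stem is a rat assay pair. Choosing by number kept miR-380 and miR-654, which also lie in the Dlk1-Dio3 region. The rule uses names and no measured value, although it was set with earlier results of these data known. The libraries came from the dissected right dentate gyrus of male C57/Black6J mice aged 6 to 8 weeks, with no transgene. In the saline group 3 mice had received saline, and in the KA-SE group 3 mice had received repeated low doses of kainic acid, a glutamate receptor agonist that brings on status epilepticus (a prolonged seizure), all by intraperitoneal injection 72 hours before dissection. The comparison of the groups asked which microRNAs differ after the seizure. The tissue holds granule neurons, progenitors, glia and vessels together, so a change in the share of a cell type and a change in RNA per cell cannot be told apart.

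In the nucleus Drosha cuts the hairpin out of its primary transcript, and in the cytoplasm Dicer removes the loop to leave a short duplex of both arms. An Argonaute protein keeps one strand, the guide, and the other, the passenger, is usually degraded. The strand whose 5′ end is less firmly paired, or that begins with U, is favoured as guide. Both arms come from one transcript in equal number, so their ratio in a tissue reflects how strands are kept and degraded and not how much of the hairpin is transcribed.

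The mature sequences of the stems on which the results turn are shown 5′ to 3′ with the seed, bases 2 to 8, in capitals, since the 2 arms of a hairpin pair with each other and yet carry different seeds. They are, of the 12 stems with both arms found in every library, those with the widest gaps between arms (miR-331, miR-384 and miR-139), those whose arm difference separated the groups in some form (miR-335, miR-345, miR-542 and miR-582), and miR-296, in which 1 arm was found in only 1 group. All are RefSeq sequences on GRCm38.p6.
miR-331-5p: cUAGGUAUggucccagggaucc
miR-331-3p: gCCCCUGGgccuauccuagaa
miR-384-5p: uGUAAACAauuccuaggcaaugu
miR-384-3p: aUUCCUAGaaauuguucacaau
miR-139-5p: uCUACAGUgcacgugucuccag
miR-139-3p: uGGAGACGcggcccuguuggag
miR-335-5p: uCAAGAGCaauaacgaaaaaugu
miR-335-3p: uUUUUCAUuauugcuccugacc
miR-345-5p: gCUGACCCcuaguccagugcuu
miR-345-3p: cCUGAACUaggggucuggagac
miR-542-5p: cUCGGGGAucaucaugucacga
miR-542-3p: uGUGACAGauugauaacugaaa
miR-582-5p: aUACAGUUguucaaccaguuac
miR-582-3p: uAACCUGUugaacaacugaac
miR-296-5p: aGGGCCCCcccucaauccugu
miR-296-3p: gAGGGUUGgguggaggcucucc

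To show how the arms sit in a hairpin, the whole miR-296 precursor is given with both arms in capitals. It lies at chr2:174267047-174267125 on the minus strand of GRCm38.p6, in the imprinted Gnas region, and the table gives no gene interval that holds it.
Mir296: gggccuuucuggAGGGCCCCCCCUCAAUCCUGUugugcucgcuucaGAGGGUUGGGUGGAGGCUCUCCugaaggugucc

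RefSeq held 45 of the 46 mature sequences, all but miR-532-5p, at 21 to 23 bases. No seed was shared between member arms, so each arm has a seed of its own among the members. Outside the members some of these seeds recur. For example, miR-384-5p shares its seed with miR-30a-5p, miR-30c-5p and miR-30e-5p, miR-199a-3p with miR-199b-3p, and miR-202-3p with let-7j. Of the other arms shown above, miR-331-5p shares its seed with miR-6973b-5p and miR-542-5p with miR-6966-5p. Several hairpins lie within the interval of a protein-coding gene. These include miR-139 in Pde2a and miR-582 in Pde4d, both genes of phosphodiesterases that break down cyclic nucleotides, miR-335 in the imprinted gene Mest, miR-340 in Rnf130, miR-331 in Vezt, and miR-188 and miR-532 together in Clcn5, on the X chromosome. They also include the hairpins of miR-199a in Dnm3 and Dnm2, miR-339 in 3110082I17Rik and miR-876 in Lingo2.

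The readout is the raw threshold cycle (Ct), the cycle at which an assay's fluorescence crosses its threshold. A lower Ct means more RNA, 40 stands for no amplification, and an assay was counted as detected below 35. Each library was 1 card loaded from 800 ng of RNA, and the card gives no read depth. Between 303 and 326 assays were detected per library. The neuronal microRNAs miR-124, miR-9, miR-137, miR-132, miR-138 and miR-128a were detected in all 6 libraries. So were miR-219 and miR-338-3p of oligodendrocytes, miR-126 of endothelium, miR-451 of erythrocytes and miR-204 and miR-211 of choroid plexus. miR-375, listed for endocrine cells, was also detected in all 6, so detection alone does not show which cells were present. Saline replicate 2 stood apart, with 303 assays detected and a median Ct of 25.9 over the microRNAs detected everywhere, against 22.8 to 23.6 in the other 5 libraries. Its U6 RNA, the reference for levels, came up at 13.9, against 12.8 to 13.6. The comparisons of the groups are therefore given with and without that library.

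Most member arms were either present throughout or absent throughout. Of the 46 arms, 29 were detected in all 6 libraries, 5 in 1 to 5 libraries and 12 in none, and 10 of those 12 never amplified. Both arms were detected in all 6 libraries for 12 stems, 1 arm for 5 stems and neither arm for 6 stems. The lowest Ct belonged to miR-139-5p at a mean of 17.2, followed by miR-384-5p at 18.6, miR-331-3p at 18.7, miR-296-5p at 20.9, miR-532-5p at 21.8 and miR-139-3p at 21.9. The later arm of miR-139 thus came up about as early as the earlier arm of miR-532. Ct is not a level per molecule across assays, because each assay has its own primers and efficiency.

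The measure used for each stem was the arm difference, the Ct of 3p minus the Ct of 5p in the same library. It is positive where 5p came up earlier, it equals the log2 ratio of 5p to 3p if each cycle copies all of the product, and any reference RNA cancels out of it. Since the assays differ, its sign and size describe these assay pairs, whereas its change between libraries does not depend on a constant offset between assays.

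Among the 12 stems with both arms in all libraries, miR-384, miR-139 and miR-582 had the widest gaps in favour of 5p. miR-384-5p, which has been tied to long-term potentiation in rat hippocampal neurons, had Ct 18.1, 20.7 and 17.9 after saline and 17.7, 18.4 and 18.4 after KA-SE. Its 3p arm stood at 22.7, 25.7 and 23.0 after saline and at 22.6, 23.3 and 23.2 after KA-SE. The arm difference was therefore 4.59, 4.99 and 5.03 cycles against 4.87, 4.85 and 4.77, a stem in which both arms were late together in saline replicate 2 and the gap stayed between 4.59 and 5.03. For miR-139, described in human tumours as a repressor of growth, 5p had Ct 17.1, 18.3 and 17.0 after saline and 16.7, 17.1 and 17.1 after KA-SE. The corresponding arm differences were 4.45, 4.64 and 5.09 against 4.30, 4.71 and 4.92 cycles, so the groups lay over each other. For miR-582 they were 3.98, 1.72 and 3.68 after saline and 4.23, 4.27 and 4.34 after KA-SE, and the 3 KA-SE libraries lay above every saline library.

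In miR-380, miR-345, miR-335 and miR-340 the 5p arm was also the earlier one, by a smaller margin. miR-380-5p, known as a repressor of p53 in neuroblastoma cells, led its 3p arm by 2.31, 5.25 and 3.19 cycles after saline and by 2.41, 3.46 and 2.61 after KA-SE. In miR-345 the lead was 1.71, 4.11 and 1.95 cycles against 2.20, 2.22 and 2.21. In both, the single wide value is saline replicate 2, in which the 3p arms of miR-380 and miR-345 came up at 31.0 and 31.0 but the 5p arms at 25.7 and 26.9. miR-335, studied in human breast cancer as a suppressor of metastasis, had arm differences of 1.82, 0.90 and 1.96 cycles after saline and 1.97, 2.00 and 2.01 after KA-SE. For miR-340 they were 2.41, -0.018 and 1.62 against 2.01, 2.25 and 2.23. Here saline replicate 2 deviated the other way, since its 5p arms lagged the other saline libraries by more than its 3p arms did. The 5p arm of miR-335 still came up earlier there, and in miR-340 both arms came up at Ct 26.0.

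The arms of miR-542, miR-532 and miR-339 came up close to each other. miR-542, from the cluster with miR-322 and miR-450 on the X chromosome, came up late, with 5p at Ct 29.1 to 30.4 outside saline replicate 2. Its arm difference was 0.61, 2.98 and 0.42 cycles after saline and 0.21, 0.13 and 0.067 after KA-SE, so every KA-SE library lay below every saline library. For miR-532 the values were 0.48, -0.99 and 0.57 against 0.50, 0.43 and 0.53, and for miR-339 they were -1.19, 1.00 and -0.36 against -0.70, -0.27 and -0.55. In both stems the order of the arms turned round in saline replicate 2 alone.

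Only miR-331 and miR-199a had 3p as the earlier arm in all 6 libraries. miR-331-3p, which in human cells represses the receptor gene ERBB2, had Ct 18.2, 19.9 and 18.5 after saline and 18.0, 18.9 and 19.0 after KA-SE. Its 5p arm came up at 26.7, 29.0 and 26.8 and at 26.5, 27.1 and 27.3. At -8.53, -9.14 and -8.37 cycles against -8.53, -8.18 and -8.36, the arm difference of miR-331 was the widest of the 12 stems. miR-199a, encoded at 2 hairpins and typical of mesenchymal cells, had arm differences of -2.65, -4.92 and -3.99 after saline and -2.09, -4.91 and -3.23 after KA-SE. It varied within both groups far more than between them, mostly through its 5p arm, whose Ct ran from 26.3 to 32.9. The 3p arm of miR-199a shares its seed with miR-199b-3p, and whether its assay also reads that microRNA was not tested. The arm difference of miR-199a may therefore not compare arms of the same hairpins.

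**Figure D1:**
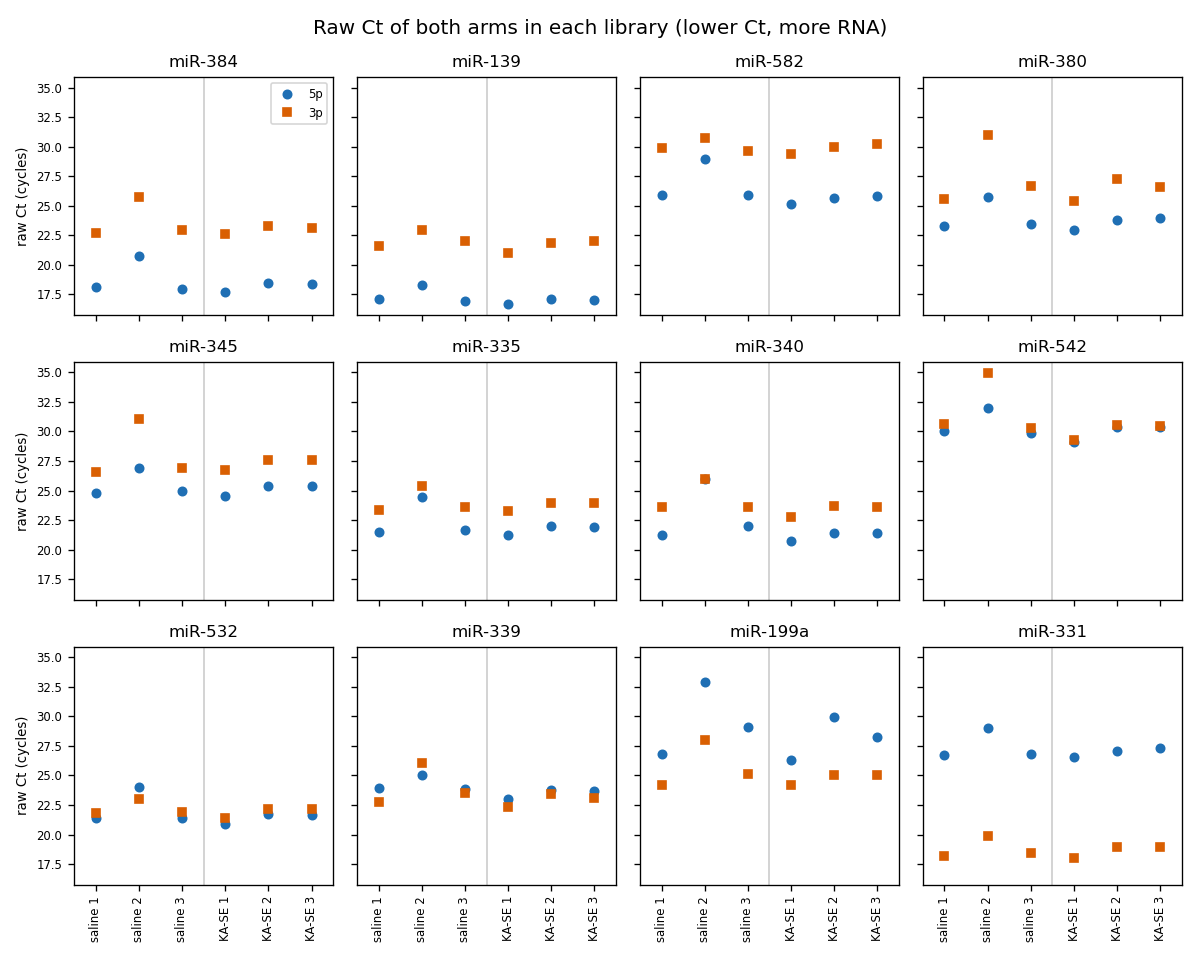
Raw Ct in cycles (y axis, lower means more RNA) of the 5p arm (blue circles) and the 3p arm (orange squares) of the 12 stems with both arms detected in all 6 libraries (x axis). The arms keep their order in most panels, saline replicate 2 is late in both arms of every stem, and the arms of miR-340 meet there at Ct 26.0.

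Over the 12 stems the size of the mean arm difference ran from 0.253 cycles in miR-532 to 8.52 in miR-331, with a median of 2.80. The same arm was earlier in all 6 libraries for 9 stems, 5p in 7 of them and 3p in 2. The other 3, miR-339, miR-340 and miR-532, changed order only in saline replicate 2, and without it the order was the same in every library for all 12 stems, with 5p earlier in 9 and 3p in 3. With the rat assays described at the end, which turn miR-339 to 5p and miR-532 to 3p, the split by the mean of these 5 libraries is again 9 and 3. Of the 11 stems set aside by number that were also detected throughout, 5p was earlier in 5 and 3p in 6 without that library, and the size of their mean arm difference ran from 0.273 to 11.4 cycles with a median of 3.86. The balance of 5p and 3p in the 2 sets was not tested.

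The arm difference was tightly kept within the KA-SE group. Its SD over the 3 KA-SE libraries was below 0.1 cycles in 6 of 12 stems, with 2.21 ± 0.012 cycles in miR-345, 1.99 ± 0.020 in miR-335, 0.49 ± 0.048 in miR-532, 4.83 ± 0.049 in miR-384, 4.28 ± 0.056 in miR-582 and 0.14 ± 0.073 in miR-542 (SD, n = 3). No stem had an SD below 0.1 after saline, and 11 of 12 stems, all but miR-199a, had a lower SD after KA-SE than after saline. The median SD was 0.102 cycles after KA-SE and 1.12 after saline, and 0.26 between saline replicates 1 and 3. Most of the gap between the groups' spreads thus sat in 1 library.

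Saline replicate 2 was the library farthest from the median of the 6 in 9 of the 12 stems, and in 9 of the 11 stems set aside. All 24 arms came up later in it than the mean of the other saline libraries, by 0.964 to 4.93 cycles with a median of 2.48, but not by the same amount in both arms of a stem. The 3p arm lagged more in 5 stems and the 5p arm in the rest, and the arm of higher Ct lagged more in 6 of 12. Neither 1 side of the hairpin nor the arm of higher Ct thus lagged more throughout. The arm difference, although free of any reference, varied about as much as the levels did, with a median SD over all libraries of 0.799 cycles against 0.788 for the levels over U6. Both were lower without that library, and again alike, at 0.247 and 0.243.

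**Figure D2:**
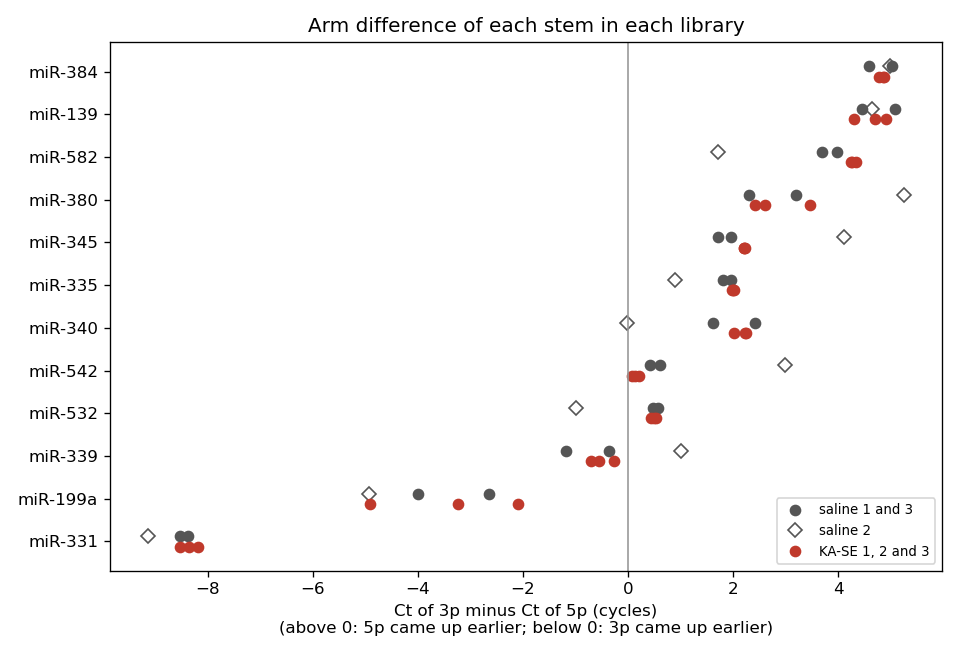
Arm difference in cycles (x axis, Ct of 3p minus Ct of 5p) of 12 stems (y axis, by mean) in each library, with saline in grey, KA-SE in red and saline replicate 2 as open diamonds. Outside the open diamonds each stem keeps to 1 side of 0, and for miR-335, miR-345, miR-384, miR-532, miR-542 and miR-582 the KA-SE points nearly coincide.

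The values of saline replicate 2 also differed in their decimals. Of its 303 detected values, 43.6% had a decimal part of 0.9 or more, just below a whole cycle, against 15.3 to 23.2% in the other 5 libraries. Among the 24 member arms, 10 did so in saline replicate 2 (41.7%), 8 in saline replicate 3, 1 in saline replicate 1 and 3 to 5 in the KA-SE libraries. The arm difference of saline replicate 2 lay within 0.05 cycles of a whole number in 5 of 12 stems, miR-339, miR-340, miR-384, miR-532 and miR-542, against 4 in saline replicate 3 and 1 or 2 in the others. The stems whose arm order turned round are all among those 5. The part of this pattern in the arm differences was not tested.

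**Figure D3:**
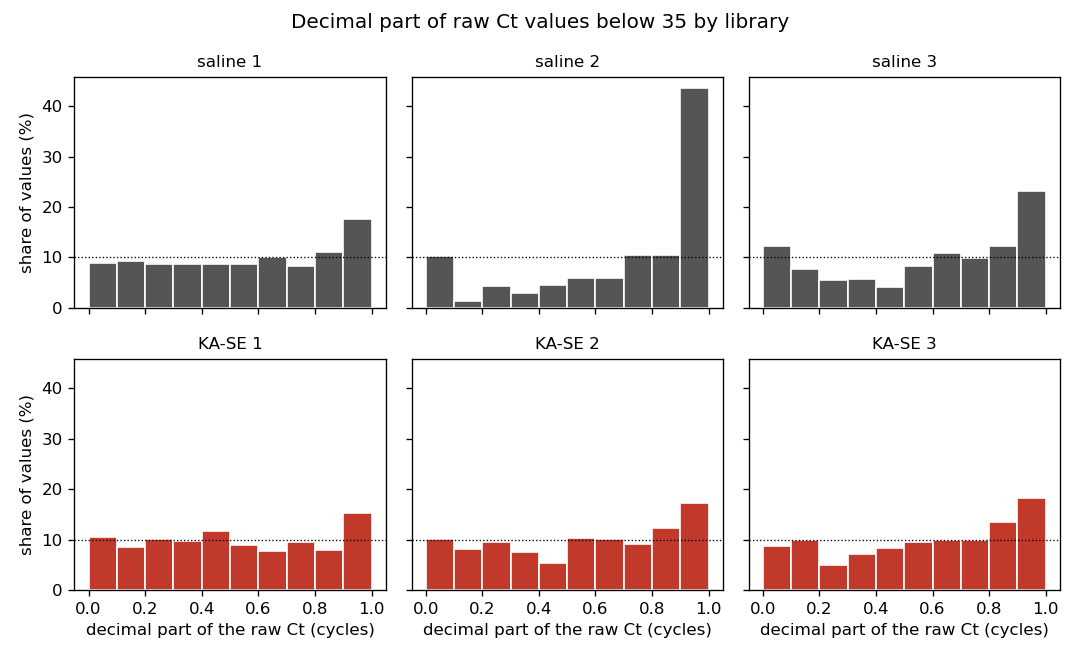
Share of detected raw Ct values in percent (y axis) by the decimal part of the value in cycles (x axis, bins of 0.1) for each library, with saline in grey, KA-SE in red and a dotted line at 10%, the share of an even spread. In saline replicate 2 the last bin holds 43.6% of the values, against 15.3 to 23.2% elsewhere.

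Neither a U at the 5′ end nor more A or U in the opening bases marked the earlier arm in most stems. In the 11 of these 12 stems with both sequences, the earlier arm began with U in 5 and the later arm in 7. Both arms began with U in miR-139, miR-335, miR-339 and miR-340, only the earlier one in miR-384, and only the later one in miR-380, miR-542 and miR-582. The earlier arm had more A or U among its first 4 bases in 4 stems, as many in 3 and fewer in 4. With miR-339, whose order turns with the rat assay, counted the other way these numbers are 3, 3 and 5. The earlier arm is an order of different assays, and the bases of an arm alone do not measure how firmly the duplex is paired. Such counts therefore do not test which strand was kept as guide. In miR-331, the stem with the widest gap, the earlier arm opens with 4 bases of G or C, as the sequence above shows, and the later arm has 2 of A or U among its first 4. Of the 45 member arms with a sequence 25 began with U, against 40.9% of the 1679 mature mouse sequences in the table.

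With all 6 libraries no stem was called as changed in its arm difference after KA-SE. limma called 0 of the 12 stems at an adjusted p under 0.05 and a change of at least 1.5-fold, as it called 0% of the 23 stems tested, the smallest adjusted p was 0.517, and 0 had an unadjusted p under 0.05. The methods' t-test also called 0, with 0 of the 12 and 1 of the 23 under an unadjusted 0.05. The change was positive in 6 stems and negative in 6, its median size was 0.44 cycles (0.48 over all 23), and it ran from -1.20 in miR-542 to 1.15 in miR-582.

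The groups did not overlap in 3 of the 12 stems, miR-335, miR-542 and miR-582, against 26.1% of the 23 stems tested. miR-582 went from 3.13 ± 1.23 cycles after saline to 4.28 ± 0.056 after KA-SE (SD, n = 3), a change of 1.15 (SE 0.60, limma adjusted p = 0.517). miR-542 went from 1.34 ± 1.43 to 0.14 ± 0.073 (SD, n = 3), a change of -1.20 (SE 0.68, limma adjusted p = 0.517). miR-335 went from 1.56 ± 0.58 to 1.99 ± 0.020 (SD, n = 3), a change of 0.43 (SE 0.37, limma adjusted p = 0.535). In these 3 stems the two-sided exact permutation test gave 0.1, the smallest p that 3 against 3 libraries allow.

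Without saline replicate 2 the changes shrank in 11 of 12 stems and turned their sign in 6. They then ran from -0.38 in miR-542 to 0.45 in miR-582, with a median size of 0.12 cycles, and 8 were positive. Still 0 of 12 stems were called by limma, with a smallest adjusted p of 0.149, but 3 had an unadjusted p under 0.05, namely miR-582 at 0.45 (SE 0.14), miR-542 at -0.38 (SE 0.12) and miR-345 at 0.38 (SE 0.12), as had 5 of all 23. In miR-335 the change fell to 0.10 (SE 0.11, limma adjusted p = 0.849). With miR-335 added, the groups did not overlap in these 4 stems, against 30.4% of the 23 stems. In miR-345 the change had been -0.38 with all libraries, so its direction rested on saline replicate 2.

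The intervals show how large a change could have gone unseen. With all libraries the 95% interval reached 0.704 to 1.95 cycles to each side of the change, and in only 2 stems, miR-139 and miR-384, did it lie wholly within 1 cycle of 0. Without saline replicate 2 it did so in 9 of 12 stems, and the interval reached 0.28 cycles to each side in miR-532, the narrowest, and 2.39 in miR-199a, the widest. For miR-384 the interval ran from -0.75 to 0.66 cycles with all libraries and from -0.41 to 0.45 without that one.

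**Figure D4:**
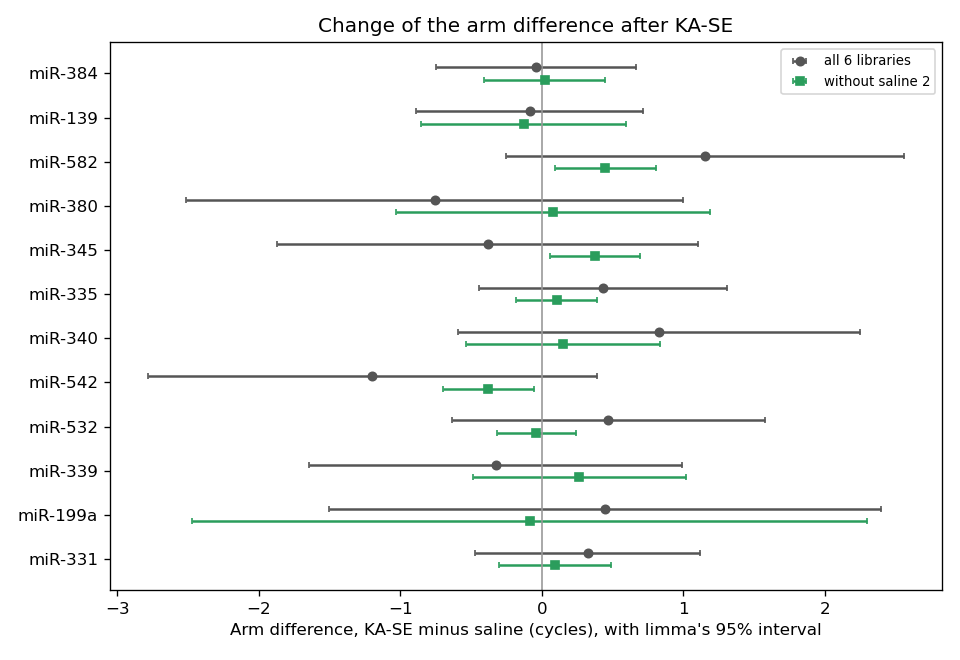
Change of the arm difference, KA-SE minus saline, in cycles (x axis) with limma's 95% interval for 12 stems (y axis), over all 6 libraries (grey circles) and without saline replicate 2 (green squares). All grey intervals cross 0, and without that library the intervals of miR-582, miR-345 and miR-542 do not, although none passed the adjusted threshold.

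In 5 stems 1 arm was detected throughout and the other was not, and miR-296 is the one of these that split by group. miR-296-5p, reported to act in human endothelial cells during vessel growth, had Ct 20.8, 22.0 and 21.0 after saline and 19.9, 20.6 and 21.3 after KA-SE. miR-296-3p did not amplify in any saline library and came up at 27.9, 29.8 and 29.7 after KA-SE. No other assay on the card was detected in exactly the 3 KA-SE libraries. With the undetected arm set at the limit of 35, the arm difference was at least 14.2, 13.0 and 14.05 cycles after saline, against measured values of 7.94, 9.20 and 8.41 after KA-SE. The means of the groups then lie at least 5.25 cycles apart, so 3p was at least 38.0-fold higher relative to 5p after KA-SE, if the assay's failure in saline means a Ct beyond 35. These bounds are 5.62 cycles and 49.2-fold without saline replicate 2.

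The miR-296 value rests on an assay that either amplified by Ct 29.8 or not at all. The same on-off behaviour occurred within groups, since 4 member arms (miR-202-5p, miR-465a-5p, miR-675-3p and miR-743b-5p) amplified before cycle 30 in at least 1 mouse of a group while they failed in another mouse of that group. The part of this in the miR-296 split was not tested. The level of miR-296-5p over U6 was 0.47 (log2, SE 0.45) higher after KA-SE, with a limma adjusted p of 0.612, and 0.34 (SE 0.33) higher without saline replicate 2, with a limma adjusted p of 0.691.

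In miR-188 and miR-509 the silent arm was silent in every library. miR-188-5p, which in rat hippocampal neurons has been linked to synaptic plasticity through neuropilin-2, came up at 26.3, 27.6 and 26.9 after saline and at 25.8, 26.6 and 26.1 after KA-SE, whereas miR-188-3p never amplified. The 5p arm was thus earlier by at least 7.39 to 9.24 cycles. miR-509-3p had Ct 25.3, 29.1 and 28.1 against 27.5, 29.0 and 29.8, miR-509-5p never amplified, and the bound there is 5.23 to 9.70 cycles in favour of 3p. In miR-202, known from gonads, 3p was detected throughout at 26.2 to 28.7 and 5p in all libraries but saline replicate 2, at 29.649 to 31.999. In the 5 libraries with both arms of miR-202 the 3p arm came first.

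**Figure D5:**
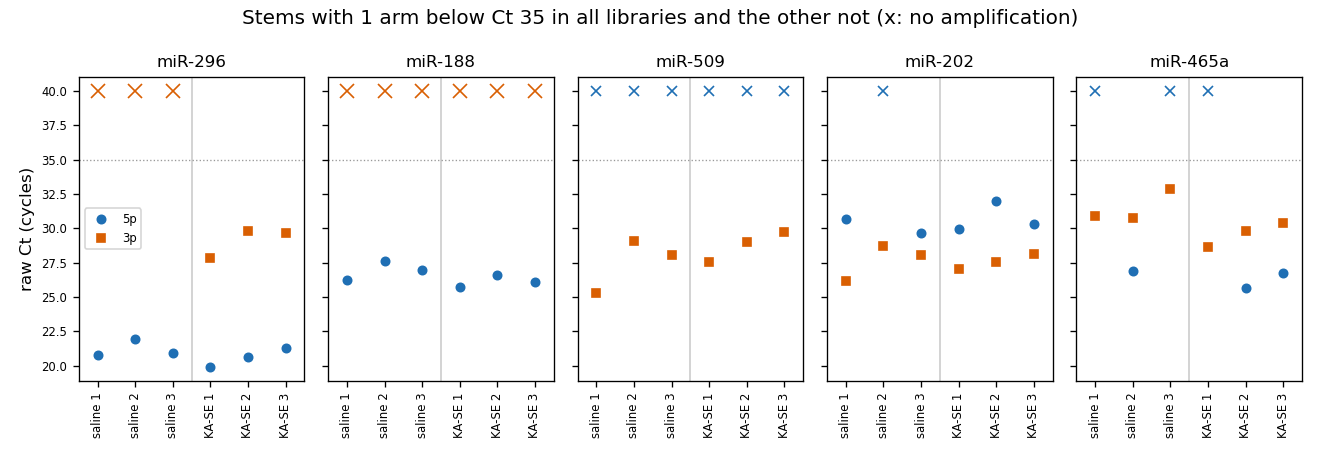
Raw Ct in cycles (y axis) of the 5p arm (blue circles) and the 3p arm (orange squares) in each library (x axis) for the 5 stems with 1 arm detected throughout and the other not, with crosses at 40 for no amplification and a dotted line at the limit of 35. miR-296-3p appears only in the KA-SE libraries, at 27.9 to 29.8, whereas the gaps of miR-202-5p and miR-465a-5p do not follow the groups.

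miR-465a-5p was detected in saline replicate 2 and KA-SE replicates 2 and 3, at 26.9, 25.7 and 26.7, and did not amplify in the others, while miR-465a-3p came up everywhere at 28.6 to 32.9. The assay for ath-miR159a, a plant microRNA that serves as a negative control, was detected in exactly the same libraries, at 21.7, 19.5 and 18.8. No other assay on the card had that pattern. miR-465a belongs to an X-linked cluster known for its expression in testis, with miR-509, miR-743b and miR-883a. Of the 8 arms of these 4 stems 2 were detected in all libraries, 2 in some and 4 in none, and no stem of the cluster had both arms throughout.

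The other stems with neither arm throughout were miR-615, miR-654, miR-675 and miR-876. miR-615 and miR-654 never amplified, and miR-876 amplified only beyond the limit, in KA-SE replicate 3 at 37.2 for 5p and 36.0 for 3p. miR-675-3p, from the imprinted growth-restraining RNA H19, was detected in KA-SE replicate 3 at 29.4 and came up beyond the limit in KA-SE replicate 1 at 36.7. miR-743b-5p was detected in KA-SE replicate 1 alone, at 25.3. The 3 imprinted stems outside the Dlk1-Dio3 region, miR-296, miR-335 and miR-675, had 3 of 6 arms detected throughout. In the Clcn5 interval miR-188 and miR-532 had 3 of 4, and of the 13 stems outside these groups and the miR-322 cluster 9 had both arms throughout.

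Levels of the single arms, as Ct of U6 minus Ct of the arm, gave no call either. limma called 0 of the 29 member arms, as it called 0% of the 281 microRNAs tested, and 1 of the 29, miR-465a-3p, had an unadjusted p under 0.05 (8 of all 281). The methods' t-test also called 0, with 2 and 6 under an unadjusted 0.05. miR-465a-3p changed most upward, by 1.74 (log2, SE 0.73, limma adjusted p = 0.556), and miR-509-3p most downward, by -1.47 (log2, SE 0.82, limma adjusted p = 0.556). Without saline replicate 2 these changes were 2.36 (SE 0.56, limma adjusted p = 0.345) and -2.02 (SE 0.78, limma adjusted p = 0.509), limma called 0 of the 29, and 3 of the 29 and 24 of the 281 had an unadjusted p under 0.05. Both are late assays of the X-linked testis cluster. miR-465a-3p shares its seed with miR-465b-3p and miR-465c-3p, and whether its assay also reads them was not tested.

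The log2 change over U6 was positive in 27 of 29 member arms (93.1%), against 87.2% of all microRNAs tested, with a median of 0.62 in both. Without saline replicate 2, 14 of 29 were positive (48.3%, against 62.6%) and the median was -0.02 against 0.12, and relative to the mean of all microRNAs 11 of 29 were positive (37.9%, against 45.9%). The groups did not overlap, with KA-SE higher, in 4 arms (13.8%), miR-188-5p, miR-339-5p, miR-340-5p and miR-582-5p, against 19.2% of all microRNAs, and with KA-SE lower in 0 arms, against 1.42%. The changes of both arms had the same sign in 12 of 12 stems over U6, in 11 without saline replicate 2 and in 6 relative to the mean of all microRNAs. The shared direction of the arms over U6 therefore depended on the reference.

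For 3 of the tested arms the card also held an assay built on the rat sequence. How well the rat assays match the mouse RNA was not examined, so they are not taken as equal to the mouse assays. Over the 6 libraries the Ct of the rat assay minus that of the mouse assay was 0.79 to 2.33 cycles in miR-339-3p. It was 0.35 to 1.68 in miR-532-5p and -2.04 to -0.20 in miR-345-3p. With the rat assay for miR-339-3p, at Ct 24.5, 28.3 and 25.0 after saline and 23.1, 24.9 and 24.3 after KA-SE, the arm difference was 0.54, 3.34 and 1.13 against 0.085, 1.15 and 0.58 cycles. The 5p arm of miR-339 was then earlier in all 6 libraries, whereas with the mouse assay 3p was earlier in 5. With the rat assay for miR-532-5p the arm difference was -0.40, -2.41 and -1.11 against 0.15, -0.36 and -0.36, so 3p was earlier in 5 libraries, whereas with the mouse assay 5p was. With the rat assay for miR-345-3p it was 1.52, 2.07 and 1.41 against 1.57, 1.39 and 1.18, and 5p stayed the earlier arm. With all libraries the change after KA-SE was -1.06 in miR-339, -0.29 in miR-345 and 1.12 in miR-532 by the rat assays and -0.33, -0.38 and 0.47 by the mouse assays, the same direction in all 3 stems. Leaving out saline replicate 2, it was -0.23, -0.085 and 0.56 by the rat assays and 0.26, 0.38 and -0.0395 by the mouse assays, the opposite direction in all 3. In each stem the other arm and the libraries are the same with both assays, so the changes by rat and mouse assays are not independent.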

How the data were processed

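The labels give 3 saline and 3 KA-SE libraries, and the study's sample overview lists them as separate mice. The authors deposited raw Ct, in cycles, and a table of other, normalized values that the methods describe as Ct relative to RNU6B. A further table, of fold changes per KA-SE library, was not used, and the number of unused columns of sample values was 0. For the instrument's software, threshold and baseline, nothing is stated in the sources used here. Members were found by name in the raw table. They, the lists and the tests were chosen with earlier results of these data known.

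The arm difference was Ct of 3p minus Ct of 5p, tested in the 23 mouse stems with both arms below 35 in all libraries. Levels were Ct of U6 (assay MammU6, since the card has no RNU6B assay) minus Ct, tested in 281 microRNAs. Both used limma 3.58.1 in R 4.3.3 without a block, and Benjamini-Hochberg adjustment over all features tested, with calls made below an adjusted p of 0.05 and from 1.5-fold. The script was tested on simulated data. A single stem was also compared with a two-sided exact permutation test. The text names all 12 tested stems and the 11 others, as the rule fixed for naming reaches them all. The deviations of same-numbered libraries from their group means had correlations of 0.444, 0.413 and 0.289 in the arm difference. In the levels these were 0.189, 0.236 and 0.0475. Libraries of different numbers were not compared, so this check cannot show whether the numbers pair the libraries. The labels give no shared litter, batch or day, and the fit with the replicate number as a block was an alternative. The rat assays and the decimals of Ct were examined after seeing the data. Sequences and positions are from RefSeq. A Ct has no counting interval, and precision rests on the 3 libraries per group.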

Additional observations from a re-analysis of the deposited data

How the results depend on the processing

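Of 154 values of the 12 arm differences under other settings, 141 kept their direction and their side of the threshold and 13 turned round. Settings of the test, the block, the fold limit or the detection limit leave the change itself as it is, so there it could not turn. The turns came from the normalized table (3 of 12) and from leaving out saline replicate 2 (6 of 12), saline replicate 3 (2 of 12) or KA-SE replicate 1 (2 of 12). With all 40s kept and no detection limit, limma called 1 of 375 levels (miR-296-3p, adjusted p = 0.00075) and 1 of 33 arm differences (miR-296, adjusted p = 0.000137), which rest on values of 40 in saline. No other setting called any stem or microRNA, with 0 calls in each leave-one-out fit. With a replicate block 0 stems and 0 microRNAs were called, and the smallest adjusted p values were 0.350 and 0.0502.

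Without saline replicate 2 the change became -0.087 in miR-199a, 0.26 in miR-339, 0.38 in miR-345, 0.079 in miR-380, 0.019 in miR-384 and -0.0395 in miR-532. Without saline replicate 3 it became 0.095 in miR-139 and 0.037 in miR-384, and without KA-SE replicate 1 it became 0.087 in miR-139 and -0.21 in miR-199a. In the authors' normalized table it was 0.17 in miR-139, 0.30 in miR-345 and 0.046 in miR-384. Leaving out each library in turn, the change ran from -0.22 to 0.095 in miR-139, -0.21 to 1.19 in miR-199a, -0.83 to 0.26 in miR-339, -0.82 to 0.38 in miR-345, -1.39 to 0.079 in miR-380, -0.0395 to 0.74 in miR-532, 0.10 to 0.63 in miR-335, 0.45 to 1.58 in miR-582 and -1.66 to -0.38 in miR-542.

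Of 96 values of the 6 member levels of lowest Ct, 11 turned round. The settings of the test, the block, the fold limit and the detection limit could not turn these changes either. Relative to the mean of all microRNAs the log2 change was -0.33 in miR-139-5p, -0.079 in miR-384-5p, -0.61 in miR-331-3p, -0.18 in miR-296-5p, -0.018 in miR-532-5p and -0.24 in miR-139-3p. Without saline replicate 2 it was -0.075 in miR-384-5p and -0.24 in miR-331-3p, and miR-331-3p also had -0.007 in the authors' table, -0.041 without KA-SE replicate 1 and -0.062 with snoRNAs as reference. Leaving out each library, miR-384-5p reached 1.07 and miR-331-3p 0.23. The causes were not tested. With 3 libraries per group and 1 standing apart, changes of under 1 cycle were mostly not detectable.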

Other observations

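The normalized table changed the arm difference itself, which subtracting 1 reference per library would leave as it was. In miR-380 the normalized arm difference exceeded the raw one by 2.53 to 2.89 cycles in 5 libraries and by 0.40 in saline replicate 2, and in miR-345 by 2.02 to 2.42 in 5 libraries against -0.069 in saline replicate 2. In miR-139 it was lower by a nearly even amount, with a mean of 3.22 cycles in the normalized table and 4.68 in the raw one. In miR-339 the mean turned from -0.34 to 0.24 cycles, so the earlier arm of that stem by the mean differs between the 2 deposited tables as it does between the mouse and rat assays. In miR-542 the 3p arm was earlier in 4 of 6 libraries in the normalized table and in 0 in the raw one. The number of stems with the same earlier arm in all 6 libraries was 8 of 12 in the normalized table, against 9 in the raw one.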
